A study of Rattus norvegicus with 12 samples.

Results

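Fascicles of rat tail tendon kept under cyclic tensile strain in vitro for 24 h (strained 24 h, 3 arrays) were compared with fascicles kept unstrained for 1 h (unstrained 1 h, 3 arrays). The comparison describes which genes under 24 h of strain lay near the early unloaded level and which had drifted from it. The samples were taken by title, which gave 6 of the 12 arrays of the series and 2 of its 4 groups. Each array was an Illumina rat bead array that held biotin-labelled total RNA of 1 fascicle sample. No label gives the rat stock, its age, the size of the tensile strain or the source of each sample, and separate animals or cultures are not stated. The spread that enters each p-value is that between samples, and may be technical in origin. The groups differ in both strain and time in vitro, and the effects of these cannot be told apart here.

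Tenocytes, the resident fibroblasts of tendon, lie in rows between collagen fibres. They make type I collagen together with small leucine-rich proteoglycans such as decorin and fibromodulin, which bind collagen fibrils and regulate their growth. Immediate early genes are transcribed within minutes of a stimulus, without new protein synthesis, and handling or excision of a tissue commonly switches them on. Matrix metalloproteinases cut the matrix, and the tissue inhibitors of metalloproteinases (Timps) block them.

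Values were the deposited normalized intensities on a linear scale, where every array had a median of 57.0, a lowest value of 33.7 and a highest of 14804. Probes in the upper 50% by mean log2 intensity were kept, which left 11259 of 22517. Over all probes, Pearson correlations ran from 0.972 to 0.984 within a group and from 0.938 to 0.960 between the groups. The first principal component, with 64.3% of the variance, parted the strained 24 h from the unstrained 1 h arrays. The tenocyte gene Dcn, which encodes decorin, was bright in both groups. It had 8356, 7553 and 6879 in strained 24 h fascicles, against 11066, 10294 and 10294 in unstrained 1 h fascicles. Of 9 kept tenocyte markers, 6 were called lower in strained 24 h fascicles, Dcn among them, as described below. Scx, Mkx and Comp, further tenocyte genes, had 0 named probes each.

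A probe was called where the moderated test of limma gave an adjusted p under 0.05, and was counted as near the early level where the 95% interval of its log2 fold change (strained 24 h minus unstrained 1 h) lay wholly within a change of 1.5-fold. Probes that were neither are termed unresolved, since a p above the threshold does not show equal levels. Of 11259 kept probes, 2029 were called (18.0%), of which 1147 were higher (10.2%) and 882 lower (7.83%) in strained 24 h fascicles. The counts of each gene list below are to be read beside these shares. Falls reached larger sizes than rises. At least 2-fold differences were seen in 290 called falls and 134 called rises, and at least 4-fold differences in 56 falls and 11 rises. The median log2 fold change was 0.01 over all kept probes, -0.78 among called falls and 0.62 among called rises. The strained 24 h and unstrained 1 h arrays did not overlap at 3913 probes (34.8%), which included 2025 of the 2029 called. Without strained 24 h replicate 2 the count of calls was 1140, and without strained 24 h replicate 3 it was 1303.

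Near the early level lay 7510 probes (66.7%), of which 74 also passed the test with a small difference, and 1794 (15.9%) were unresolved. The near share depended on brightness. In the brighter probes (the upper 30% of all by mean, with a mean intensity of at least 66.3), 47.3% were near and 29.0% called, against 95.8% near and 1.53% called among the dimmer kept probes. A background level remains in the deposited values and shrinks the fold change of a dim probe, so nearness means most for probes well above that level. The plot of change against mean level shows this narrowing at the left. At the other end, the highest value of 14804 is the same on every array and limits how far the brightest probes can rise.

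**Figure D1:**
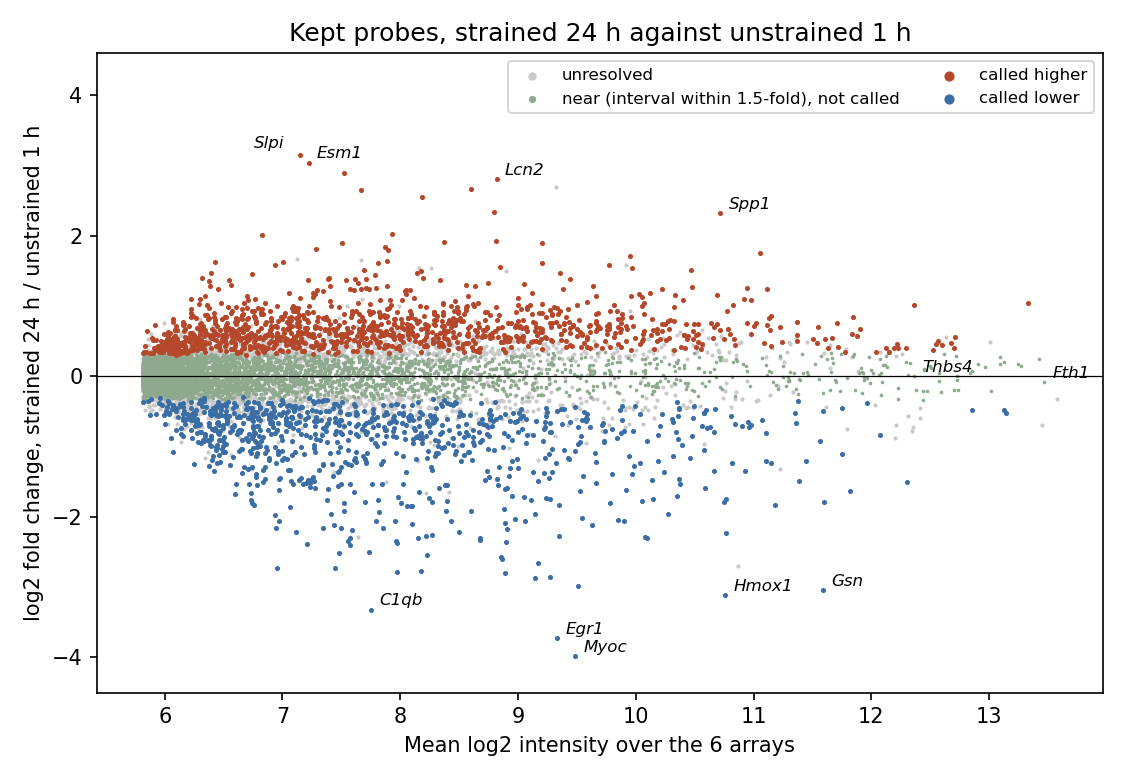
Each point is 1 of the 11259 kept probes, with the mean log2 intensity over the 6 arrays on the horizontal axis and the log2 fold change, strained 24 h minus unstrained 1 h, on the vertical axis. Falls extend to -3.98 (Myoc) and rises to 3.15 (Slpi, whose unstrained values lie at the background level), dim probes cluster around 0, and Thbs4 and Fth1 are bright probes near the early level.

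The 15 largest called falls included genes of extracellular proteins, macrophages and stress. Myoc, which encodes the secreted glycoprotein myocilin, had 341, 121 and 141 in strained 24 h fascicles, against 4434, 3249 and 1596 in unstrained 1 h fascicles. This was a 15.8-fold fall, with a log2 fold change of -3.98 ± 0.46 (SE) and an adjusted p of 0.00164. Gsn, which encodes the actin-severing protein gelsolin, had 1784, 968 and 715 in strained 24 h fascicles and 9245, 8925 and 8356 in unstrained 1 h fascicles. Even the brightest strained array lay far below the dimmest unstrained one. Hmox1, the haem-degrading enzyme haem oxygenase 1, fell by 3.12 on the log2 scale. Other falls were those of Fibin (-2.86), Wfdc1 (-2.78), the urea transporter Slc14a2 (-2.73), Apoe, the lipid carrier apolipoprotein E (-2.80), and Dpt, the matrix protein dermatopontin (-2.60). Egr1, C1qb, C1qc, Chad, Mfap5, Ctss and Kera completed the set and are described with their groups.

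The 15 largest called rises included secreted innate defence proteins, proteinases and enzymes. Esm1, the proteoglycan endocan, had 511, 291 and 529.8 in strained 24 h fascicles, against 49.2, 54.5 and 52.5 in unstrained 1 h fascicles (8.24-fold higher, adjusted p = 5.20e-04). Its unstrained values lay at the background level, as did those of Slpi, which headed the set at 3.15 and is described with its group. Spp1, which encodes osteopontin, a phosphoprotein of mineralising and inflamed tissue, had 3031, 3961 and 4434 in strained 24 h fascicles, against 876, 617 and 797 in unstrained 1 h fascicles. The osteopontin rise was 2.32 ± 0.18 on the log2 scale (adjusted p = 5.20e-04). Steap1 rose by 2.89, Mgst2, a microsomal glutathione transferase, by 2.66, and the carboxylesterase Ces1c by 2.34. Smaller rises in the set were those of Ltbp2 (2.02), Acat2 (1.93), Adgrg1 (1.89), the uridine phosphorylase Upp1 (1.82) and Cdc42ep5 (1.80). The call of Ltbp2 was lost without unstrained 1 h replicate 3 (adjusted p = 0.0524).

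Immediate early genes stood lower after 24 h of strain than in the early unloaded state. Of 30 kept genes of the list, 15 fell (50%, beside 7.83% of all kept probes), none was called higher, 4 were near and 11 unresolved, with a median log2 fold change of -0.73 beside 0.01 for all kept probes. Egr1, a zinc finger factor induced by serum and stretch, had 349, 119 and 134 in strained 24 h fascicles, against 1473, 2784 and 3136 in unstrained 1 h fascicles. The highest strained array was thus far under the lowest unstrained one, and the fall was 13.2-fold (log2 fold change -3.73 ± 0.43, adjusted p = 0.00164). Fos, a subunit of the factor AP-1, had 64.9, 65.6 and 62.5 in strained 24 h fascicles, against 198, 245 and 542 in unstrained 1 h fascicles, and fell by 2.21 on the log2 scale (adjusted p = 0.00362). The strained values of Fos lay close to the array median of 57.0, so the size of this fall depends on the background level. Zfp36, which binds and destabilises mRNAs of cytokines, had 270.1, 159.8 and 145 in strained 24 h fascicles and 1026, 727 and 1004 in unstrained 1 h fascicles. Its groups did not overlap either (log2 fold change -2.30 ± 0.24). Egr2 fell by 2.28, Dusp6, a phosphatase of ERK kinases, by 0.89, and Myc by 1.73.

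Not every early gene had gone down. Dusp1, a phosphatase that inactivates MAP kinases, had 2338, 2515 and 2106 in strained 24 h fascicles, against 1853, 2220.3 and 2675 in unstrained 1 h fascicles. With an interval of -0.28 to 0.39 on the log2 scale it lay near the early level, as did Maff (0.09) and Dusp2 (-0.10). Jun, which pairs with Fos, was dim and unresolved, with 119, 112 and 104 in strained 24 h and 136, 102 and 163 in unstrained 1 h fascicles. Jun was picked after its values were seen, as were Klf6, Dusp5, Srf and Ier2 below, which are named for the sequences in their promoters.

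Serum response factor binds the CArG box, a motif of CC, 6 bases that are each A or T, and GG. Promoters from RefSeq (rat build GRCr8, 250 bases before to 50 after the start) were found for 27 genes of the early list and searched on both strands, as were all 33469 promoters. A CArG box was present in 6 of 27 early gene promoters (22.2%), against 548 of all promoters (1.64%). The 6 genes were Egr1, Egr2, Zfp36 and Klf6, which fell, and Dusp5 and Srf, which were unresolved. The matches are shown because they belong to the 3 genes that led the list together with Fos, and to 3 others that moved less. Each is written 5′ to 3′ on the strand of its gene, with the motif in capitals and 15 flanking bases on either side.
Egr1: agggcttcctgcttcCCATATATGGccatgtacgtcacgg
Egr2: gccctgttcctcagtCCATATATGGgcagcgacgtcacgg
Zfp36: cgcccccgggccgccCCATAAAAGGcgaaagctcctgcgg
Klf6: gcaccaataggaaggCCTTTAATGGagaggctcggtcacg
Dusp5: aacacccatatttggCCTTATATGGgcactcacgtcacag
Srf: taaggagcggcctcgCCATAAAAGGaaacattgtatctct
Egr1 and Egr2 shared the same 10 letters of the box. The motifs started 83 bases before the start of transcription in both Egr1 and Egr2, 32 before it in Zfp36, 201 in Klf6, 72 in Dusp5 and 61 in Srf. Egr1, Dusp5 and Srf held a further match each, and the one nearer the start is printed. On GRCr8 the windows lay at chr18:26736980-26737019 (Egr1, plus strand), chr20:21054500-21054539 (Egr2, minus), chr1:92799116-92799155 (Zfp36, minus), chr17:69458655-69458694 (Klf6, minus), chr1:262543687-262543726 (Dusp5, plus) and chr9:21924000-21924039 (Srf, plus). Klf6 fell by 1.06 on the log2 scale (adjusted p = 0.00510), with differences of -0.41 ± 0.19 for Dusp5 and -0.37 ± 0.14 for Srf. The cyclic AMP response element TGACGTCA was present in 5 of the 27 early promoters (18.5%), against 1.83% of all. These were Dusp1 and Maff, which were near, Ier2, which fell by 1.79, and Btg2 and Jund, which had no named probe. The AP-1 motif TGANTCA was found in 0 of the 27 and in 7.33% of all promoters. No matches of different motifs overlapped in these promoters. A match describes letters in this window and shows neither a bound site nor its use.

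Tenocyte and tendon matrix genes formed the other large group that stood lower. Of 9 kept tenocyte markers 6 fell, none was called higher, Thbs4 was near and Col1a1 and Col1a2 were unresolved. The median log2 fold change was -1.64. This list also holds Egr1, so the largest of its falls, -3.73, is counted among the early genes as well. Chad, which encodes chondroadherin, a leucine-rich protein that binds collagen and cells, had 588, 169 and 174 in strained 24 h fascicles, against 2382, 2185 and 1655 in unstrained 1 h fascicles. Kera, the proteoglycan keratocan, had 257, 98.8 and 271 in strained 24 h fascicles, against 854, 1066 and 1577 in unstrained 1 h fascicles. Both groups were fully separate for these genes, with log2 fold changes of -2.99 ± 0.44 and -2.57 ± 0.39. Fmod, which encodes fibromodulin, had 2466, 1612 and 2162 in strained 24 h fascicles and 5859, 5391 and 8179 in unstrained 1 h fascicles (log2 fold change -1.64 ± 0.20, adjusted p = 0.00195). Decorin was 1.39-fold lower (-0.48 ± 0.10 on the log2 scale), a call lost without strained 24 h replicate 2 or 3 (adjusted p up to 0.0623).

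Tnmd, which encodes tenomodulin, a membrane protein of mature tenocytes, had 2057, 982 and 1603 in strained 24 h fascicles, against 2373, 3392 and 5188 in unstrained 1 h fascicles. Its log2 fold change was -1.23 ± 0.33 (adjusted p = 0.0371), and the call was lost without strained 24 h replicate 2 or 3 or unstrained 1 h replicate 2 or 3, with an adjusted p up to 0.114. Thbs4, the matrix protein thrombospondin 4, was the tenocyte marker that stayed, with 5803, 4611 and 5498 in strained 24 h fascicles and 4872, 4788 and 6212 in unstrained 1 h fascicles. Its interval was -0.31 to 0.33 on the log2 scale. The dot plot of lower genes by array shows these markers beside early and macrophage genes.

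**Figure D2:**
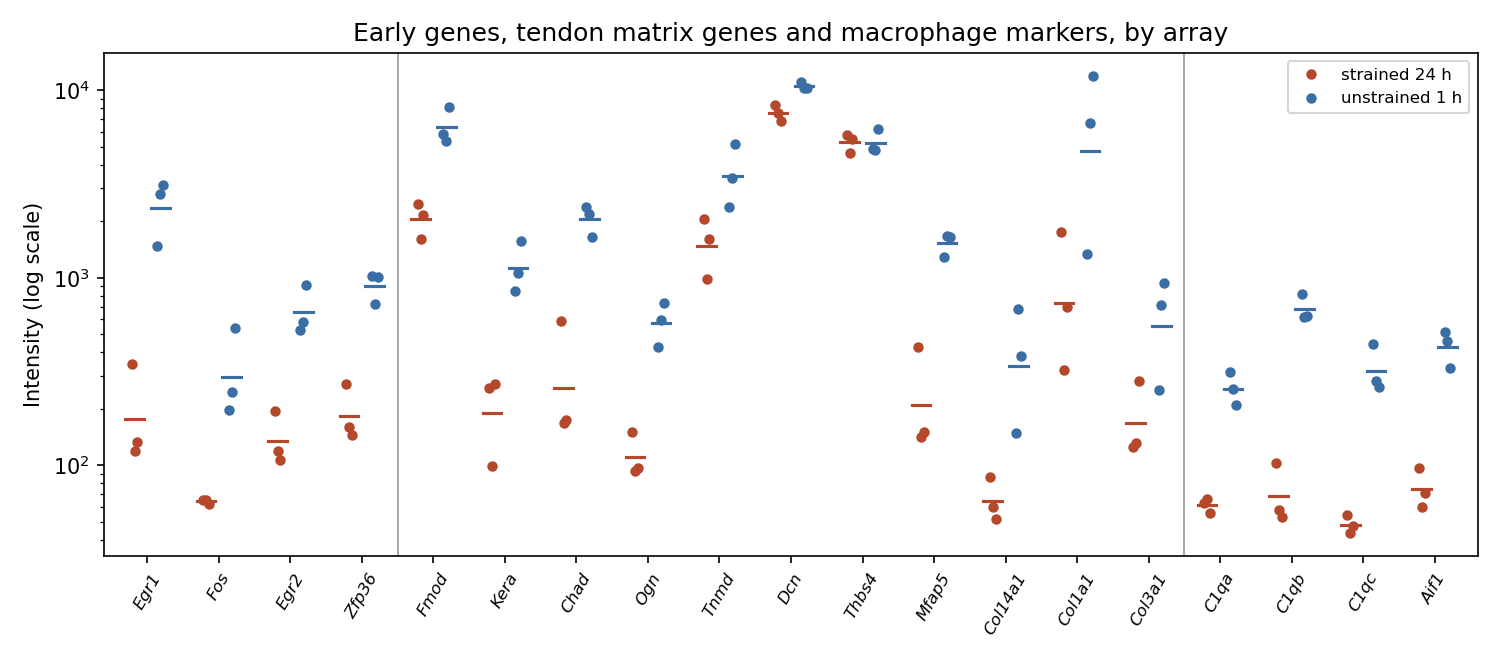
Intensity (log axis) of immediate early genes, tendon matrix genes and macrophage genes in each strained 24 h array and each unstrained 1 h array, with a line at the geometric mean of each group. Egr1, Chad, Kera and C1qb show fully separate groups, Col1a1 shows unstrained arrays from 1342 to 11930 that overlap the strained ones, and Thbs4 lies at the same level in both.

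The fibrillar collagens and their processing enzymes were split. Of 26 kept genes 9 fell, 2 rose, 6 were near and 9 unresolved, and the median log2 fold change was -0.42. The count of falls was 4 without strained 24 h replicate 2 and 5 without unstrained 1 h replicate 2. The count of rises was 0 without strained 24 h replicate 3 and 1 without each of the other 5 arrays. Col1a1, the alpha 1 chain of type I collagen, had 1760.2, 323 and 700.1 in strained 24 h fascicles, against 1342, 6717 and 11930.4 in unstrained 1 h fascicles. The spread within each group was so wide that a log2 fold change of -2.69 ± 0.84 missed the threshold (adjusted p = 0.0614). Col1a2, the partner chain, chosen after its values were seen, stood at the highest value of the array in 2 unstrained samples. That value is the same on every array after normalization, so the size of the Col1a2 difference, -0.69, is uncertain (adjusted p = 0.0520). Col3a1, the chain of type III collagen, had 125, 132 and 282 in strained 24 h fascicles and 253, 713 and 937 in unstrained 1 h fascicles. It passed narrowly (log2 fold change -1.73 ± 0.49, adjusted p = 0.0463) with overlapping groups, and did not pass without strained 24 h replicate 1 or 2 or unstrained 1 h replicate 2 or 3 (adjusted p up to 0.150).

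Several enzymes that modify or cleave procollagen fell too. P4ha1, a prolyl hydroxylase subunit, had 364, 459 and 304 in strained 24 h fascicles, against 760.5, 967 and 1189 in unstrained 1 h fascicles, and fell by 1.37 on the log2 scale (adjusted p = 0.00349). Loxl2 and Loxl3, enzymes that crosslink collagen, fell by 1.09 and 0.80. Pcolce, an enhancer of procollagen cleavage, fell by 1.77, though not past the threshold without strained 24 h replicate 2 (adjusted p = 0.0519). By contrast Ppib, the proline isomerase cyclophilin B, and Crtap, both parts of the prolyl 3-hydroxylation complex, lay near the early level, with intervals of -0.22 to 0.21 and -0.31 to 0.16. Loxl4 was near at -0.30. Of 7 kept non-fibrillar collagens 4 fell, none rose, 1 was near and 2 were unresolved, and 1 rose without unstrained 1 h replicate 3. Col14a1, which coats fibrils, fell by 2.39 (adjusted p = 0.0529 without strained 24 h replicate 2), Col15a1 by 2.16, Col6a1 by 1.35 and the basement membrane chain Col4a1 by 1.06. Col27a1 was near at -0.03.

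Proteoglycans and matrix glycoproteins, a list that holds several of the tenocyte markers as well, were often lower. Among 33 kept, 14 fell, 2 rose (Esm1 and Spp1), 7 were near and 10 unresolved, with a median of -0.45. The count of falls was 9 without strained 24 h replicate 2 and without unstrained 1 h replicate 3. Ogn, the leucine-rich proteoglycan osteoglycin, had 150.3, 93.6 and 96.5 in strained 24 h fascicles, against 426, 598 and 730.5 in unstrained 1 h fascicles (log2 fold change -2.37 ± 0.24, adjusted p = 0.00118). Ecm1 fell by 2.25. Fn1, which encodes fibronectin, had 4338, 3789 and 3740.3 in strained 24 h fascicles and 4101, 4101 and 3902 in unstrained 1 h fascicles. With an interval of -0.26 to 0.19, fibronectin was near the early level, as were Matn3 (-0.17) and Gpc4 (-0.31). Prg4, which encodes lubricin, reached the highest value of the array in 1 unstrained sample and was unresolved at -0.32. Prg4 was chosen after its values were seen.

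Elastic fibre genes numbered 15 kept, of which 6 fell, 2 rose, 2 were near and 5 unresolved, and 1 rose without unstrained 1 h replicate 3. Mfap5, a microfibril protein, had 429.9, 141 and 150.04 in strained 24 h fascicles, against 1298, 1677 and 1642 in unstrained 1 h fascicles, a 7.32-fold fall (adjusted p = 0.00265). Ltbp4 fell by 1.70, Fbln1 by 1.74 and Fbln5 by 0.68, whereas Fbn2 and Ltbp1 lay near at -0.01 and -0.14. Ltbp2, a relative of Ltbp4 that binds fibrillin without binding latent TGF-beta, was among the largest rises. Among markers of sheath fibroblasts, the cells that surround fascicles, 4 of 7 kept fell, none was called higher, 1 was near and 2 were unresolved, and 1 rose without strained 24 h replicate 2. The falls included Mfap5 and also Igfbp6 (-1.48), Tppp3 (-0.99) and Pi16 (-2.18). Pi16 was not called without strained 24 h replicate 2 or 3 or unstrained 1 h replicate 2 or 3 (adjusted p up to 0.112), and a further probe of it was unresolved at -0.94.

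Several ligands of the TGF-beta family were lower. Of 20 kept genes of TGF-beta and BMP signalling 6 fell, none was called higher, 2 were near and 12 unresolved. Tgfb3 had 92.0, 75.9 and 88.4 in strained 24 h fascicles, against 205, 256 and 285 in unstrained 1 h fascicles, and fell by 1.53 on the log2 scale (adjusted p = 0.00107). Tgfb2 fell by 0.98, Bmp4 by 0.60 and Bambi, a decoy receptor, by 0.59. Pmepa1, an induced feedback inhibitor of the pathway, was near with 2621, 2994 and 2230.2 in strained 24 h and 2048, 3014 and 2515 in unstrained 1 h fascicles, and so was the receptor Tgfbr1 (-0.12).

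Matrix proteinases moved in both directions. Of 30 kept, 6 rose, 7 fell, 10 were near and not called, and 7 were unresolved. The count of rises was 3 without strained 24 h replicate 1 and without strained 24 h replicate 3. Mmp10, the proteinase stromelysin 2, had 657, 1473 and 362 in strained 24 h fascicles, against 120.5, 120.4 and 121 in unstrained 1 h fascicles (5.85-fold higher, adjusted p = 0.00575). Mmp12, the elastin-cutting macrophage metalloelastase, had 479.6, 1040.4 and 266 in strained 24 h fascicles, against 161, 62.0 and 53.4 in unstrained 1 h fascicles. Unstrained 1 h replicates 2 and 3 of Mmp12 lay close to the array median of 57.0, so the size of its rise, 2.65, depends on the background level. The rise was not called without unstrained 1 h replicate 2 (adjusted p = 0.0504). Adamts5, an aggrecanase, rose by 0.74 (adjusted p = 0.0277), and was not called without strained 24 h replicate 1, 2 or 3 or unstrained 1 h replicate 3, with an adjusted p up to 0.101. Ctss, the lysosomal proteinase cathepsin S of antigen-presenting cells, fell by 2.77, and Fap, Adam15 and Mmp23 fell by 1.44, 1.05 and 0.96.

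The collagenase Mmp13 had 90.8, 66.4 and 69.8 in strained 24 h fascicles, against 58.9, 47.8 and 54.3 in unstrained 1 h fascicles. The groups did not overlap, and the difference of 0.49 ± 0.14 just missed the threshold (adjusted p = 0.0510). The unstrained values of Mmp13 lay close to the array median of 57.0, so the size of this difference depends on the background level. Mmp3, stromelysin 1, was bright in both groups, with 9511, 11930.4 and 8179 in strained 24 h and 9511, 5188 and 6717 in unstrained 1 h fascicles, and was unresolved at 0.50 ± 0.23. Mmp14, a membrane-bound activator of Mmp2, was unresolved with an interval of -0.68 to 0.58. Mmp2, the gelatinase that Mmp14 activates, was near at -0.05 ± 0.09, as was Mmp15 at -0.14. Htra1 had a difference of 0.35 that was both called (adjusted p = 0.0452) and within 1.5-fold, and it was not called without strained 24 h replicate 1, 2 or 3 or unstrained 1 h replicate 1 or 2 (adjusted p up to 0.135).

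Inhibitors of proteinases moved in both directions. Of 11 kept, 5 fell, 2 rose (Timp1 and Slpi), none was near and 4 were unresolved, and 1 rose without strained 24 h replicate 1, unstrained 1 h replicate 2 or unstrained 1 h replicate 3. Timp1 stood at the highest value of the array, 14804, in all 3 strained 24 h samples, against 10294, 5989.6 and 5989.6 in unstrained 1 h fascicles. Its log2 fold change was 1.05 ± 0.20 (adjusted p = 0.0106). Every array has the same highest value after normalization, so the size of this difference is uncertain. Timp2 had 156, 156 and 109 in strained 24 h fascicles, against 306, 269 and 377 in unstrained 1 h fascicles, and fell by 1.18 (adjusted p = 0.00413). Timp3, the inhibitor that stays bound to matrix, fell by 0.49, and was not called without strained 24 h replicate 1 or 2 or unstrained 1 h replicate 3 (adjusted p up to 0.0584). Cst3, the cysteine proteinase inhibitor cystatin C, fell by 1.5 and Serpinf1 by 1.53. Reck, a membrane inhibitor of metalloproteinases, fell by 1.06 at the probe used and was near at -0.04 at a dimmer one.

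Several macrophage genes were close to the background level after 24 h of strain. Of 17 kept markers of macrophages and other leucocytes, 6 fell, none was called higher, 6 were near and 5 unresolved, and 1 rose without unstrained 1 h replicate 1. The summed intensity of the 17 was 1679 to 1774 in strained 24 h arrays, against 2833 to 5117 in unstrained 1 h arrays. C1qb, a chain of complement C1q made by macrophages, had 103, 58.0 and 53.1 in strained 24 h fascicles, against 824, 618 and 623 in unstrained 1 h fascicles. C1qa had 62.6, 65.8 and 55.8 in strained 24 h fascicles and 315, 257 and 209 in unstrained 1 h fascicles. Apart from the 103 of C1qb in 1 array, these strained values lay close to the array median of 57.0, and the log2 fold changes were -3.32 ± 0.25 and -2.07 ± 0.15 (adjusted p = 5.20e-04 for C1qb). C1qc fell by 2.73. Aif1, a calcium-binding protein of macrophages, fell by 2.52. In bulk RNA, fewer cells of a type and less RNA per cell cannot be told apart. Cd163, Cd3e and Itgam were near at -0.19, 0.07 and 0.13, with dim values in both groups.

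Other immune genes moved beside this fall of macrophage markers, whose part in them was not tested. Of 20 kept complement and interferon genes 7 fell, 1 rose, 6 were near and 6 unresolved, and 4 fell without strained 24 h replicate 2. The rise was not called without strained 24 h replicate 1 or 3 or unstrained 1 h replicate 2 or 3. Serping1, the C1 inhibitor, had 390.1, 229.9 and 104 in strained 24 h fascicles, against 959, 1302 and 996 in unstrained 1 h fascicles (log2 fold change -2.35 ± 0.41, adjusted p = 0.00706). Cfd, complement factor D of adipocytes and other cells, fell by 2.12, C4b by 0.87 and C6 by 0.74, whereas Bst2, Stat2 and Cfi were near at 0.00, -0.18 and 0.29. Of 19 kept antigen presentation genes 4 fell and 8 were near, and 2 fell when any 1 strained array was left out, while 1 rose without unstrained 1 h replicate 3. RT1-S3, a rat class Ib gene, was 5.64-fold lower and RT1-A1, of class Ia, 1.71-fold lower, while B2m, the light chain they share, was near with 4547, 3945 and 4281 in strained 24 h and 4489, 4508 and 4508 in unstrained 1 h fascicles. Probes of RT1 genes may share sequence, so the member that moved is uncertain. RT1-DMa (-0.51) and RT1-DMb (-0.66), which load peptides on class II, were called narrowly (adjusted p = 0.0249 and 0.0443). RT1-DMa was not called without strained 24 h replicate 1, 2 or 3 or unstrained 1 h replicate 3, and RT1-DMb was not called without strained 24 h replicate 1, 2 or 3 or unstrained 1 h replicate 1 or 2 (adjusted p up to 0.0881 and 0.119).

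Some secreted innate defence genes were higher. Of 14 kept genes of acute phase and secreted innate proteins 3 rose, 1 fell, 3 were near and 7 unresolved, and 1 rose without unstrained 1 h replicate 2 or 3. Slpi, an inhibitor of neutrophil elastase, had 497, 1392 and 109 in strained 24 h fascicles, against 53.0, 41.7 and 48.4 in unstrained 1 h fascicles. These unstrained values lie at the background level, below the array median of 57.0, so the size of its difference, 3.15, and its rank among rises depend on that level. Lcn2, which binds bacterial siderophores, had 1204, 1674 and 844 in strained 24 h fascicles, against 523, 102 and 93.5 in unstrained 1 h fascicles. Slpi varied widely among the strained arrays and Lcn2 among the unstrained ones, and the calls (adjusted p = 0.0250 and 0.0170) were lost without strained 24 h replicate 1 or unstrained 1 h replicate 2 or 3 for Slpi and without strained 24 h replicate 2 or unstrained 1 h replicate 2 or 3 for Lcn2, with an adjusted p up to 0.0782 and 0.0698. Orm1, an acute phase glycoprotein, rose by 0.72 (adjusted p = 0.00383), and Tf, the iron carrier transferrin, fell by 2.32. Hp and Lbp, liver acute phase proteins, were unresolved at 0.32 ± 0.12 and 0.83 ± 0.35 (adjusted p = 0.112 and 0.147), and Lgals3bp, Saa4 and Fgg were near.

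Cytokine genes were mostly unresolved. Of 25 kept, 3 rose (12%, beside 10.2% of all kept probes) and 3 fell (12%, beside 7.83%). A further 3 were near and 16 unresolved, and 6 rose without unstrained 1 h replicate 1. The count of falls was 2 whichever of the 6 arrays was left out. The largest of the falls, -3.12, was that of Hmox1, a haem-degrading enzyme that is also counted among the oxidative stress genes. Ccl2, a monocyte attractant, was very bright and near the early level, with 10810.5, 8179 and 9013 in strained 24 h fascicles and 9905, 7096 and 7962 in unstrained 1 h fascicles. Cxcl16 rose by 1.47 and Nos2, the inducible nitric oxide synthase, by 1.40, while Il33, an alarmin, was 2.38-fold lower, a call lost without unstrained 1 h replicate 2 (adjusted p = 0.0511). Il6 had 933, 484 and 153 in strained 24 h fascicles, against 526, 243 and 251 in unstrained 1 h fascicles. The interval, -1.02 to 1.76, spans changes in both directions, and Ptgs2, the inducible cyclooxygenase, was likewise unresolved at 0.26 ± 0.19. Ccl20, chosen after its values were seen, had 3859, 1206 and 922 in strained 24 h fascicles and 813, 218 and 90.5 in unstrained 1 h fascicles, and missed the threshold at 2.69 ± 0.79 (adjusted p = 0.0514). Tnf and Vegfa were near at -0.14 and 0.03.

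**Figure D3:**
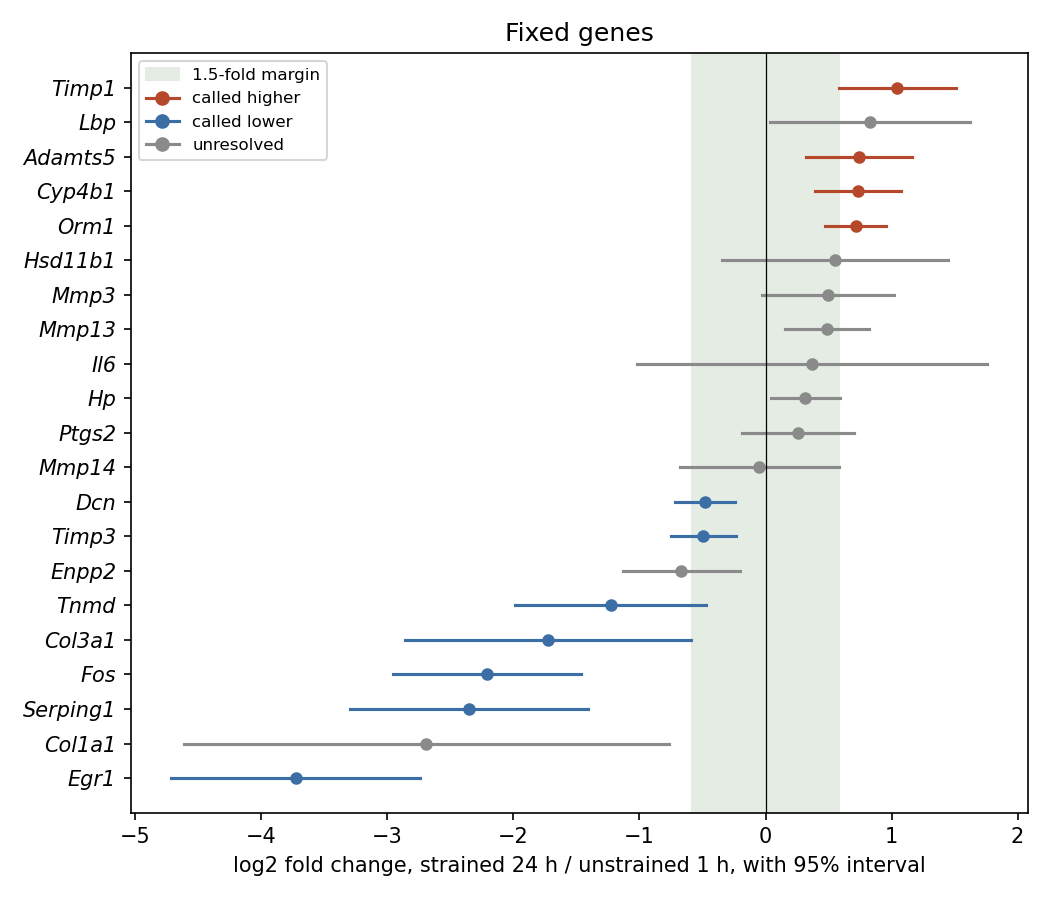
Log2 fold change, strained 24 h minus unstrained 1 h, of 21 genes of tendon matrix, proteinases, early response and innate defence that were chosen by name, with 95% intervals and the margin of 1.5-fold marked. Egr1 lies furthest to the lower side at -3.73, Timp1 furthest to the higher side at 1.05, and the intervals of Col1a1, Il6 and Col3a1 are the widest of the 21.

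Among 21 genes named by choice, 4 rose, 7 fell and 10 were unresolved, and none was near, as the plot of fixed genes shows. Besides those above, Cyp4b1, a fatty acid hydroxylase, rose by 0.74 (adjusted p = 0.0124). Enpp2, the secreted lysophospholipase autotaxin, had 161, 136 and 233 in strained 24 h fascicles, against 238, 323 and 267 in unstrained 1 h fascicles. Its groups did not overlap, at a difference of -0.67 ± 0.20 that missed the threshold (adjusted p = 0.0571). Hsd11b1, which regenerates active glucocorticoid, was unresolved at 0.55 ± 0.39.

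Cholesterol synthesis was the list with the highest share of called rises. Of 16 kept genes 12 rose (75.0%, beside 10.2% of all kept probes), 1 fell, none was near and 3 were unresolved, with a median log2 fold change of 1.22. The fall was not called without strained 24 h replicate 1 or 3 or unstrained 1 h replicate 2 or 3. Fdps, farnesyl diphosphate synthase, had 363, 414 and 579 in strained 24 h fascicles, against 138, 133 and 105 in unstrained 1 h fascicles (3.56-fold higher, adjusted p = 0.00118). Idi1, the isomerase before it in the pathway, had 311, 332 and 408 in strained 24 h fascicles, against 115, 138 and 115 in unstrained 1 h fascicles. Fdft1, the squalene synthase after it, rose by 1.62, and Mvd, the mevalonate decarboxylase, by 1.36. Each of these genes had separate groups. The sterol response element, ATCAC followed by CCCAC, was found in 0 of 18 promoters of the list and in 0.125% of all, which says only that these letters are not in the windows searched.

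**Figure D4:**
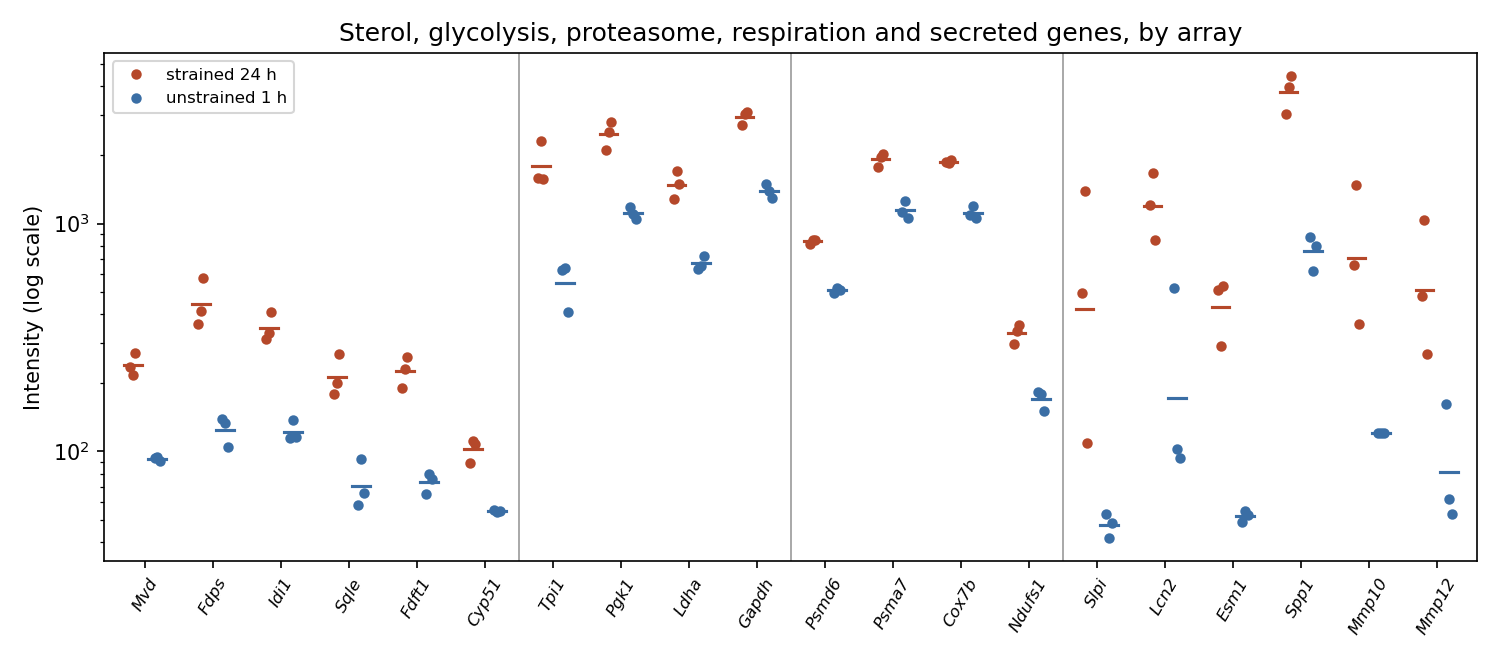
Intensity (log axis) of genes of cholesterol synthesis, glycolysis, the proteasome, respiration and secreted products in each strained 24 h array and each unstrained 1 h array, with a line at the geometric mean of each group. The 2 groups are separate in each of these genes, with narrow spread in Psmd6 and Psma7 and wide spread among strained arrays in Slpi and Mmp10.

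Several glycolytic enzymes were higher after 24 h of strain. Of 21 kept glycolysis and hypoxia genes 7 rose, 2 fell, 4 were near and 8 unresolved, with a median of 0.53, and 1 fell when any array but unstrained 1 h replicate 3 was left out. Ldha, lactate dehydrogenase A, had 1279, 1694 and 1486 in strained 24 h fascicles, against 634, 652 and 720.2 in unstrained 1 h fascicles, a 2.21-fold rise (adjusted p = 0.00135). Pgk1 rose by 1.15 and Gapdh, often used as a reference gene, by 1.09, while Pkm, the last enzyme of the pathway before lactate, was near at 0.24 and Pfkm at 0.25. Angptl4, an inhibitor of lipoprotein lipase induced by hypoxia and fatty acids, rose by 1.63. Vegfa, a hypoxia target as well, was near, as given above.

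Many respiratory chain genes rose by small amounts. Of 37 kept genes of oxidative phosphorylation 22 rose (59.5%), none fell, 8 were near and not called, and 7 were unresolved, with a median of 0.50. The count of rises was 12 without strained 24 h replicate 2 and without strained 24 h replicate 3. Ndufs1, the largest subunit of complex I, had 297, 338 and 359 in strained 24 h fascicles, against 182, 179 and 151 in unstrained 1 h fascicles (log2 fold change 0.96 ± 0.12, adjusted p = 0.00199). Atp5mc1 rose by 0.80, Cox7b by 0.75 and Ndufb3 by 0.69, and Cox6c was near at -0.02.

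Most proteasome genes were higher in strained 24 h fascicles. Of 29 kept subunits 21 rose (72.4%), none fell, 4 were near and 4 unresolved, and 28 of the 29 differences were positive with a median of 0.55. Psmd6, of the 19S cap, had 816, 844 and 846 in strained 24 h fascicles, against 495, 524 and 511 in unstrained 1 h fascicles. Psma7, an alpha ring subunit, had 1775, 1965 and 2015 in strained 24 h fascicles, against 1121, 1259 and 1062 in unstrained 1 h fascicles. Both were higher in each strained array than in any unstrained one, by 0.71 ± 0.09 and 0.74 ± 0.11. Psma3, another alpha ring subunit, was near at -0.13, as was the ATPase Psmc6 at 0.06.

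Ribosomal protein genes were called higher more often than all kept probes. Their near share lay between that of all kept probes and the 47.3% of the brighter probes, of which 29.0% were called in either direction. Of 57 kept, 17 rose (29.8%, beside 10.2%), 30 were near (52.6%, beside 66.7%), of which 29 were not called, 1 fell and 10 were unresolved, with a median of 0.28. The count of rises was 9 to 10 when any 1 strained array was left out, and the fall was not called without strained 24 h replicate 1 or 3 or unstrained 1 h replicate 3. Rplp0, of the ribosomal stalk, had 10294, 9905 and 10810.5 in strained 24 h fascicles and 8356, 9905 and 9245 in unstrained 1 h fascicles, and lay near at 0.18 ± 0.10. Rpl31, Rpl5 and Rpl7 rose by 1.18, 1.09 and 0.84. Ribosomal protein genes have many processed pseudogenes, and probes may share sequence with them. Of 33 kept ribosome assembly genes 19 were near, 2 rose (Nhp2, 2.37-fold, and Ebna1bp2, 1.73-fold), 1 fell and 11 were unresolved. The fall, -1.73 on the log2 scale, has the size given above for Myc among the early genes. The shares called higher and lower, 6.06% and 3.03%, lay below the 10.2% and 7.83% of all kept probes. Without unstrained 1 h replicate 1, 8 rose. Translation factors and tRNA synthetases, 28 kept, had 13 near, 5 higher and 4 lower, with 1 lower without strained 24 h replicate 3 and 2 without strained 24 h replicate 2 or unstrained 1 h replicate 3. Without strained 24 h replicate 3 there were 3 higher. Eef1a1 and Eef2, the main elongation factors, were near at -0.19 and -0.14. Eif3c and Eif3d, subunits of an initiation factor, rose by 0.69 and 0.67, and Cars1, a tRNA synthetase, fell by 0.66.

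Cell cycle genes had 6 rises, no falls, 6 near and 13 unresolved among 25 kept, with a median of 0.43. The count of rises was 2 without unstrained 1 h replicate 2 and 3 without strained 24 h replicate 2 or unstrained 1 h replicate 3. Ccnd1, cyclin D1, had 748, 790.1 and 1853 in strained 24 h fascicles, against 478, 272 and 295 in unstrained 1 h fascicles. Mcm2, of the replicative helicase, rose by 1.24 (adjusted p = 0.0113). Ccnd1 rose by 1.61, Gmnn by 1.29 and Cdk4 by 0.81. Ccnd1 was not called without unstrained 1 h replicate 2 or 3, Gmnn without unstrained 1 h replicate 2 and Cdk4 without strained 24 h replicate 2 or 3, with adjusted p up to 0.0655, 0.0707 and 0.0623. Cdkn1a, the inhibitor p21, was near at -0.01, and Cdk6 at 0.08.

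The unfolded protein response divided into genes that fell and genes that stayed. Of 24 kept genes 9 fell, none was called higher, 9 were near and 6 unresolved, and 1 rose without unstrained 1 h replicate 1. Xbp1, a factor that drives the response, had 854, 614 and 616 in strained 24 h fascicles, against 1636, 1648 and 1553 in unstrained 1 h fascicles (log2 fold change -1.23 ± 0.14, adjusted p = 0.00162). Herpud1, which serves degradation at the endoplasmic reticulum, fell by 1.96, Atf4 by 1.16 and the co-chaperone Dnajb9 by 0.95. The disulfide isomerases P4hb and Pdia6 were near at -0.20 and -0.25.

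The endoplasmic reticulum stress element, CCAAT and CCACG with 9 bases of any kind between them, was found on either strand in 7 of 24 promoters of the list (29.2%), against 22 of all 33469 (0.0657%). It was shared by genes on both sides of the division, and the windows of 2 that fell, Hspa5 and Xbp1, and of 4 that were near are printed to show this, with the element in capitals. For Calr the element lies on the opposite strand and reads as its reverse complement. The genes below other than Xbp1 are named for these sequences, after their values were seen.
Hspa5: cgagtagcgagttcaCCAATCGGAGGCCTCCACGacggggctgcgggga
Xbp1: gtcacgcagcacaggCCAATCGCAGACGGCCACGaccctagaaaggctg
Calr: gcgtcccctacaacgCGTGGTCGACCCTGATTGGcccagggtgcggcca
Canx: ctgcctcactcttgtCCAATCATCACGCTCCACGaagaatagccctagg
Dnajc3: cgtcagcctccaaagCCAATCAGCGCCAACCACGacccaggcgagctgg
Hsp90b1: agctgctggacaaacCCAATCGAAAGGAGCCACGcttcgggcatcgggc
On GRCr8 these lay at chr3:38452958-38453006 (Hspa5, plus strand), chr14:84604543-84604591 (Xbp1, plus), chr19:40213120-40213168 (Calr, plus), chr10:35158054-35158102 (Canx, minus), chr15:102432519-102432567 (Dnajc3, plus) and chr7:23012436-23012484 (Hsp90b1, minus), where the strand is that of the gene. The element started 43 bases before the start of transcription in Hspa5 and 65 in Xbp1, and between 133 and 232 in the other four windows. Hsp90b1, which was near, held a further match that started 72 bases before its start. Hspa5, the chaperone BiP, had 3874, 3466 and 2505 in strained 24 h fascicles, against 6717, 5245 and 5438 in unstrained 1 h fascicles, and fell by 0.84 (adjusted p = 0.0148). Hsp90b1, the chaperone GRP94, had 2699.98, 3087 and 2731 in strained 24 h fascicles and 3534, 2249.8 and 2768 in unstrained 1 h fascicles. Its difference was 0.02 ± 0.16, and those of Calr, Canx and Dnajc3 were -0.19, 0.15 and -0.01. Creld2, the remaining gene with the element, was unresolved at -0.68.

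**Figure D5:**
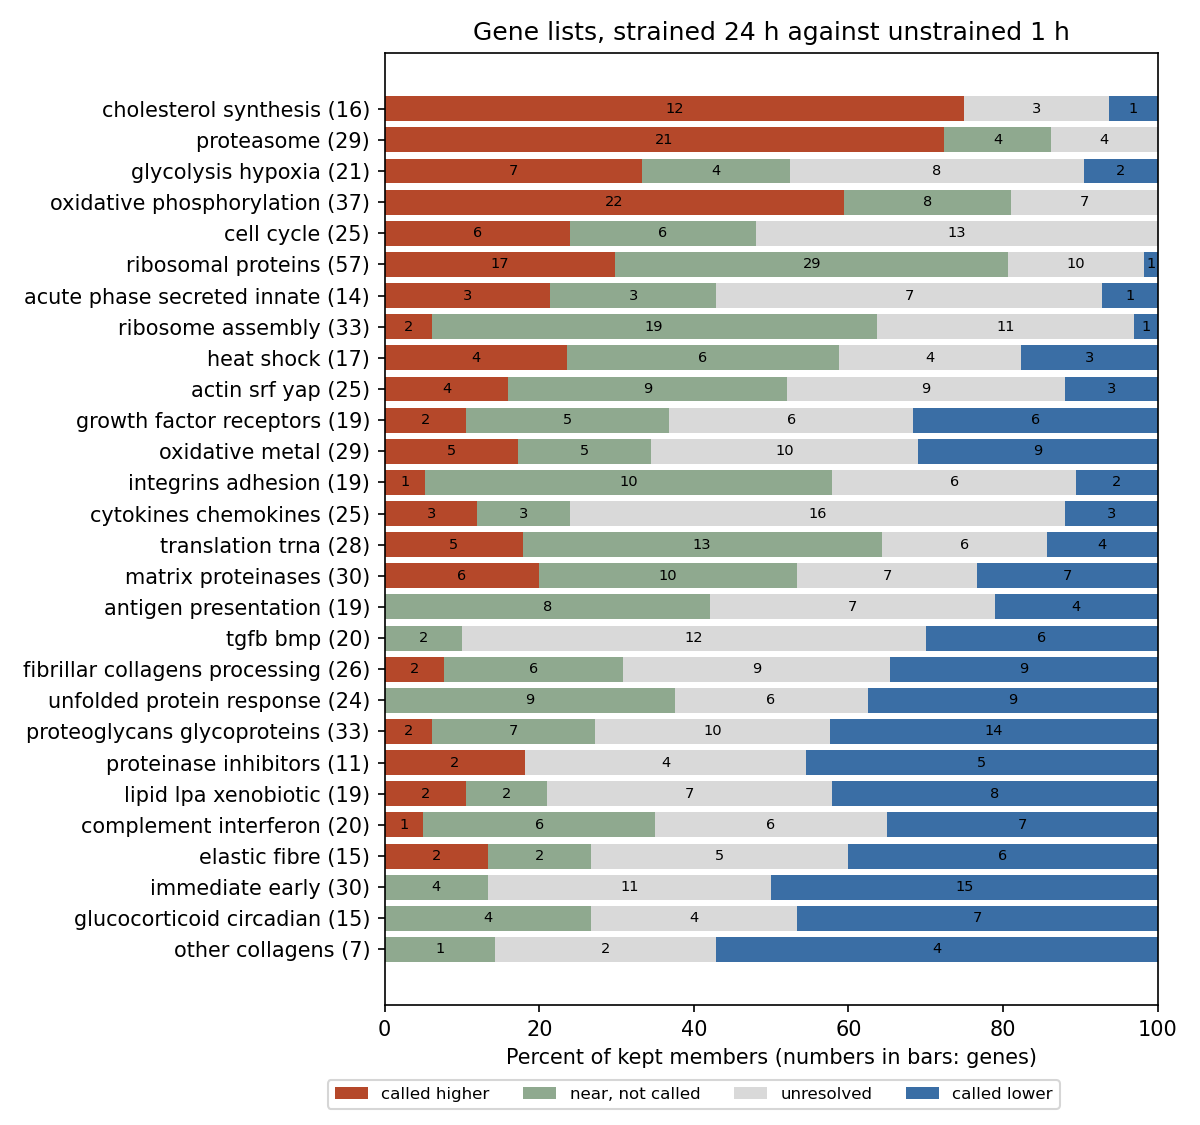
For each gene list of pathways and matrix components (cell type markers are not drawn), the share of kept genes that were called higher, near, unresolved or called lower in strained 24 h against unstrained 1 h fascicles, in percent, with the number kept beside its name. Of the lists drawn, cholesterol synthesis and the proteasome have the highest shares called higher (75.0% and 72.4%), and non-fibrillar collagens and immediate early genes the highest shares called lower (57.1% and 50%).

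Heat shock and redox genes moved in both directions. Of 17 kept heat shock genes 4 rose, 3 fell, 6 were near and 4 unresolved. The mitochondrial chaperonins Hspd1 and Hspe1 rose by 1.01 and 0.87, and Chordc1 by 0.78. Cryab, the small chaperone alpha B crystallin, fell by 1.65, whereas Dnajb1, Dnajb4 and the mitochondrial Hspa9 were near at 0.02, -0.03 and 0.07. Of 29 kept genes of oxidative stress and metal handling 5 rose, 9 fell, 5 were near and 10 unresolved. Hmox1 had 730.5, 1291 and 216 in strained 24 h fascicles, against 5919, 5355 and 4180.2 in unstrained 1 h fascicles, which left the groups far apart (adjusted p = 0.00747). Gpx1, a glutathione peroxidase, fell by 1.37 and Gclm, of glutathione synthesis, by 1.12, while the peroxiredoxins Prdx3 and Prdx2 rose by 1.03 and 0.81. Fth1, the ferritin heavy chain, was the brightest near gene, with 9245, 11066 and 13080.1 in strained 24 h fascicles and 11930.4, 11930.4 and 11066 in unstrained 1 h fascicles. These values lie so close to the highest value of every array, 14804, that a 1.5-fold rise of Fth1 could not have been seen.

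Targets of glucocorticoids and the circadian clock were often lower, with 7 falls, no rises, 4 near and 4 unresolved among 15 kept (median -0.79). Errfi1, a feedback inhibitor of EGF receptors, had 426, 172 and 166 in strained 24 h fascicles, against 745, 954 and 1309.7 in unstrained 1 h fascicles (adjusted p = 0.00706). Klf9 fell by 1.74, Bhlhe40 by 1.53 and Nfil3 by 1.30, but the glucocorticoid target Fkbp5 was near at 0.19 and the clock output genes Dbp and Tef at -0.12 and -0.32. Lipid handling genes had 8 falls, 2 rises, 2 near and 7 unresolved among 19 kept. Plpp3, which degrades lysophosphatidic acid, had 443, 338 and 363 in strained 24 h fascicles, against 1465, 1744 and 1748 in unstrained 1 h fascicles, a 4.35-fold fall (adjusted p = 4.32e-04). Aldh3a1 fell by 1.54 and Pltp, a phospholipid transfer protein, by 1.31, with a dimmer probe of Pltp at -2.10.

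Genes by which cells hold matrix were near the early level in a share between those of the brighter and of all kept probes. Of 19 kept integrin and adhesion genes 10 were near (52.6%, beside 66.7% of all and 47.3% of the brighter probes). Further, 1 rose (5.26%, beside 10.2% of all kept probes), 2 fell (10.5%, beside 7.83%) and 6 were unresolved. No fall was called without strained 24 h replicate 1, and 1 was without strained 24 h replicate 2, unstrained 1 h replicate 1 or unstrained 1 h replicate 3. Itgb1, the beta chain of the collagen-binding integrins, had 762, 809 and 801 in strained 24 h fascicles and 803, 773 and 752 in unstrained 1 h fascicles, with an interval of -0.17 to 0.23. Gja1, which forms the gap junctions between tenocytes, was near at -0.18. Parva, a focal adhesion protein, rose by 1.13, and Itgb5 (-0.72) and Itga10 (-0.43), a collagen receptor chain, were called lower. Itgb5 was not called without strained 24 h replicate 1 or unstrained 1 h replicate 3, nor Itga10 without strained 24 h replicate 1 or 2 or unstrained 1 h replicate 1 or 2 (adjusted p up to 0.0554 and 0.0874).

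Actin cytoskeleton genes, many of which are targets of serum response factor or YAP, had 9 near, 4 rises, 3 falls and 9 unresolved among 25 kept. The shares called were 16% higher and 12% lower, beside 10.2% and 7.83% of all kept probes. The count of rises was 1 without strained 24 h replicate 2, without strained 24 h replicate 3 and without unstrained 1 h replicate 2, and that of falls was 1 without strained 24 h replicate 1 or 2. Myh9, Tpm1 and Ankrd1 were near at 0.11, 0.19 and 0.12. Fhl2, a LIM protein, rose by 0.92 (adjusted p = 0.00655) and Tubb6 fell by 0.60. Tuba1a (-0.81) was not called without strained 24 h replicate 1 or 2, and Tpm3 (0.49) was not called without strained 24 h replicate 1, 2 or 3 or unstrained 1 h replicate 2 (adjusted p up to 0.0653 and 0.0990). A dimmer probe of Tpm3 was near at 0.15. Growth factors and their receptors had 6 falls, 2 rises, 5 near and 6 unresolved among 19 kept, with 2 falls without strained 24 h replicate 2 or 3, and 1 rise without strained 24 h replicate 1 or unstrained 1 h replicate 2 or 3. Igfbp6, which binds IGF2, fell by 1.48, Il1rl1, the receptor of Il33, by 1.07 and Igf2 by 0.40. Igf2 was not called without strained 24 h replicate 2 or 3 or unstrained 1 h replicate 3 (adjusted p up to 0.0760). Igfbp5, Pdgfb and Hgf were near at 0.04, -0.05 and -0.04.

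The 10 brightest near genes were Fth1, Ccl2, Mfge8, Eef1a1 and 6 ribosomal protein genes, Rplp0, Rpl23a, Rpsa, Rpl32, Rpl41 and Rpl9. Mfge8, a secreted adaptor in the clearance of dying cells, had 6456, 9245 and 7661 in strained 24 h fascicles and 8675, 9245 and 8925 in unstrained 1 h fascicles. Its interval was -0.53 to 0.10, and the differences of the 10 ranged from -0.22 (Mfge8) to 0.28 (Rpl23a) on the log2 scale. The shared highest value of 14804 limits rises among these genes, most of all for Fth1. Nearness held under omission of an array for most named genes: of 102 named genes near and not called, 88 were near in all 6 fits that each left out 1 array. Of 148 named genes called, 123 were called in all 6.

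Markers of other cell types were few among the kept probes. The 3 kept endothelial markers, Cldn5, Tie1 and Plvap, were all near, and their summed intensity was 170 to 186 in strained 24 h arrays, against 181 to 202 in unstrained 1 h arrays. None of the 5 kept smooth muscle and pericyte markers and none of the 7 kept markers of chondrocytes and bone was called. Among smooth muscle markers 1 was called higher without strained 24 h replicate 1 and 1 lower without strained 24 h replicate 2. Of 6 kept nerve and Schwann cell markers Pmp22 fell by 1.59 and Cnp rose by 0.78, both of which are also expressed outside nerve, and S100b (-0.55), also called lower, was not called without strained 24 h replicate 1, 2 or 3 or unstrained 1 h replicate 1 or 3 (adjusted p up to 0.154). The summed intensity of the 6 was 1242 to 1331 in strained 24 h arrays, against 2384 to 3528 in unstrained 1 h arrays, most of it from Pmp22, with means of 888 ± 58.3 and 2730.04 ± 622 (SD, n = 3 each). Tnnt3, of 3 kept skeletal muscle markers, fell by 0.85 (1 other rose without strained 24 h replicate 3), Cfd, of 4 kept adipocyte markers, fell as given above, and Pf4, of 5 kept blood markers, fell by 1.39. The sums were 186 to 214 in strained 24 h arrays, against 220 to 266 in unstrained 1 h arrays, for muscle, 310 to 342, against 583 to 641, for adipocytes, and 751 to 1013, against 1410 to 2278, for blood. Most of the blood sum was Pf4, with means of 630.1 ± 143 in strained 24 h and 1672 ± 455 in unstrained 1 h fascicles (SD, n = 3 each). No keratinocyte marker was kept. The part of these cells in the results above was not tested.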

How the data were processed

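Per the labels' protocols, RNA came from a Trizol extraction, a column clean-up with DNase I and a biotin label. The deposited intensity values, 1 per probe and array, had already been normalized between arrays: sorted values of the arrays differed by at most 0.0928%. For background treatment and software the sources used here give no statement. Another table, with 24 columns of per-sample values named by number alone, was not used. The deposited intensities were taken to log2 with no other correction.

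Probe symbols came from GEO's platform annotation, where 13787 probes had 1 symbol, 0 had several and 8730 were unnamed, and 0 changed through Entrez identifiers against the RefSeq rat table (GRCr8). The upper 50% of probes by mean log2 intensity over the 6 arrays was kept, with 7769 genes; the dimmest kept probe had a mean of 56.3. For genes with several kept probes the brightest was used. Of 1024 symbols in 39 lists, 842 were on the array and 696 were kept, and counts refer to those kept.

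The groups were tested by lmFit and eBayes of limma 3.58.1 (R 4.3.3, two-sided, a mean per group, 4 residual and 4.05 prior degrees of freedom), with Benjamini-Hochberg adjustment over the 11259 kept probes. Errors are standard errors. The number of arrays limits the precision, with a median standard error of 0.12. An exact permutation test of 3 against 3 arrays cannot go below 0.1. Alternatives were other filters, background subtraction, renormalization, a variance trend, array weights, the strained 1 h arrays in the fit, the replicate number as a block, each array left out and other margins.

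Named genes were the 15 largest called rises and falls with separate groups, the 10 brightest near genes, up to 4 members of smallest p and 3 near members of narrowest interval per list, and 21 fixed genes; others are marked. The genes, lists and motifs were chosen with earlier results of these data known. Figures used matplotlib 3.10.9 in Python 3.11.15.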

Additional observations from a re-analysis of the deposited data

How the results depend on the processing

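The count of called probes, 2029 in the fit as reported, kept within 1.5 times under the other filters, background subtraction, a variance trend with robust estimation, array weights and the fit with the strained 1 h arrays. Renormalization of the 6 arrays gave 2029 as well. The deposited arrays already shared nearly the same sorted values, so that setting could change little and is no check of the count. Leaving out 1 array at a time gave 1140 to 1905 calls, of which 628 to 1014 were higher and 512 to 891 lower, and 6728 to 7226 near probes. The near count, 7510 as reported, was 19031 with no filter on dim probes, 2943 in the upper 30% and 2592 with the margin narrowed to 0.32 on the log2 scale; these settings change the number of probes tested or the margin itself. Among the 268 named genes, no called result turned its direction. Called rises made up 53.2% to 57.2% of calls over the settings. Replicate numbers were not treated as pairs in the fit as reported. Deviations of same-numbered arrays correlated at 0.158, 0.031 and 0.184, and those of differently numbered arrays at -0.189 to 0.049. These values do not settle whether the numbers mark pairs. A fit with a block for replicate number called 2165 probes (1201 higher and 964 lower), of which 1855 were among those called without the block. Dim signal limits nearness: fold changes of probes close to the background are compressed.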
